A study of Drosophila melanogaster with 2 samples.

Results

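Binding of CG14711-eGFP, a ZAD zinc finger protein of Drosophila melanogaster, was described at the promoters of 50 genes of the secretory pathway. They were 21 PIG genes of glycosylphosphatidylinositol (GPI) anchor synthesis, 10 EMC genes of the endoplasmic reticulum (ER) membrane protein complex and 19 Sec genes. The genes were chosen by symbol alone, as all protein-coding genes of the annotation whose symbol starts with PIG, or with EMC or Sec followed by a digit, among 13945 protein-coding genes of the 6 chromosome arms. These symbol families were picked with earlier results from the same peak lists known, and the peaks near their transcription start sites (TSSs) belong to the rule. All counts and signals are therefore given as descriptions, with no test. The Sec genes are a family by name and take in several machines, namely the translocon, the COPII coat, the exocyst, SNAREs and an Arf exchange factor.

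The material was whole adult female flies, of unknown age per the labels, of a transgenic line that stably expresses CG14711 with green fluorescent protein fused to its C terminus. Chromatin immunoprecipitation and sequencing (ChIP-seq) was done with an antibody against GFP on 2 biological replicates, numbered 3 and 4. Both replicates belong to 1 group, all libraries carry the transgene, and a whole organism mixes many cell types, so the tissue behind a peak cannot be told. The peak lists hold no read counts and the depth of the libraries is unknown.

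GPI anchors are glycolipids built on the ER membrane by a chain of enzymes and attached to the carboxyl end of proteins, which then sit on the outer face of the plasma membrane. The ER membrane protein complex inserts membrane proteins into the lipid bilayer, and in flies it is known for its need in rhodopsin biogenesis in photoreceptors. Sec proteins, named after yeast secretion mutants, carry proteins into the ER, from the ER to the Golgi and to the plasma membrane. The roles of single PIG, EMC and Sec proteins given below are those of their mammalian or yeast counterparts.

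A gene was counted when a peak summit lay within 500 bp of any of its TSSs. The main list was the optimal list of the irreproducible discovery rate (IDR) procedure, which holds the 5654 peaks of highest signal among 30000 pooled peaks. In it, 35 of the 50 genes had a promoter peak (70%, Wilson 95% interval 56.2 to 80.9%), and so did 30.7% of all protein-coding genes. By family these were 16 of 21 PIG genes (76.2%, 54.9 to 89.4%), 7 of 10 EMC genes (70%, 39.7 to 89.2%) and 12 of 19 Sec genes (63.2%, 41 to 80.9%). These intervals cover the counting of genes only and treat genes as independent draws. Since the families were picked with results known, the intervals do not test any share against that of all protein-coding genes. The 3 family intervals overlap widely, and the difference between families was not tested. No summit was counted for more than one of the 50 genes, so the 35 genes had 35 distinct summits.

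**Figure D1:**
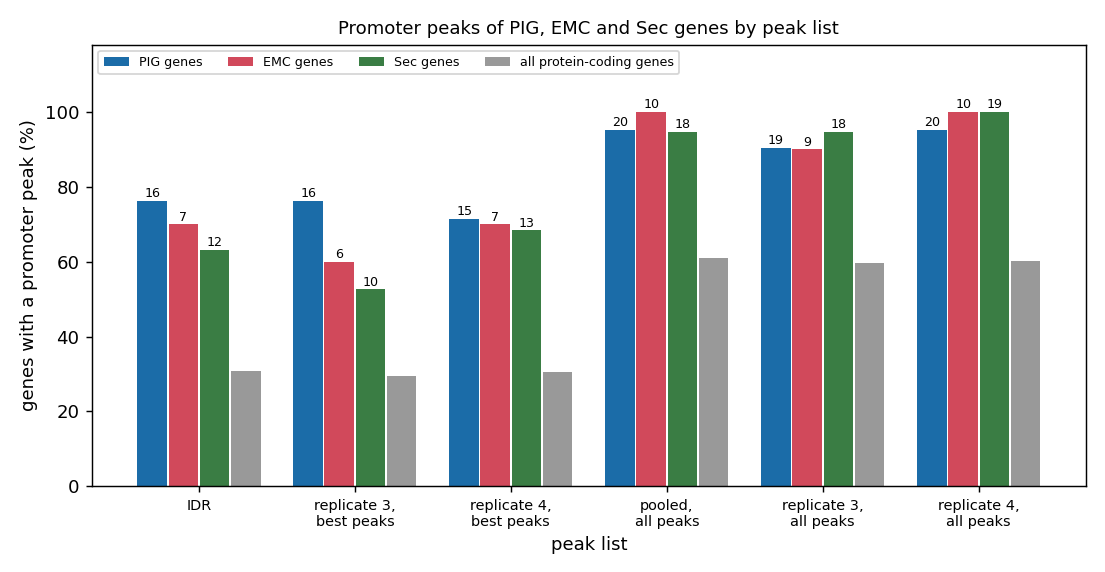
Share of genes with a promoter peak (vertical axis, percent, from 0) in 6 peak lists (horizontal axis), for PIG genes (blue), EMC genes (red), Sec genes (green) and all protein-coding genes (grey). The number above a bar is the count of genes. In every list each family stood above the grey bar, which was 30.7% in the IDR list and 60.9% in the pooled list.

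The lists of the single replicates gave similar counts. Among the 5654 best peaks of replicate 3, 32 of the 50 genes had a promoter peak (64%, against 29.4% of all protein-coding genes). Among the same number of best peaks of replicate 4 there were 35 genes (70%, against 30.5%). With each list at its full length of 30000 peaks, 46 genes had one in replicate 3, against 59.8% of all protein-coding genes. In replicate 4 there were 49 genes (98%, against 60.2%) and in the pooled list 48 (96%, against 60.9%). Of the 35 genes with an IDR peak, 28 (80%) were also among the best peaks of both replicates, as were 76.5% of all protein-coding genes with an IDR peak.

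Sequences at strong summits are shown here for their base composition. They are given for the 4 PIG or EMC genes and the 4 Sec genes of highest IDR signal outside 1 chromosome arm whose sequence is not printed, as the summit base with 50 bases to either side, written 5′ to 3′ on the strand of the gene, from the RefSeq copy of the Release 6 assembly (dm6). Capitals mark runs of at least 8 bases of A or T only, and matches to the words TATCGATA or AACCCT, which overlap a run at Sec61alpha.
EMC3, chr2L:10732535-10732635, minus strand: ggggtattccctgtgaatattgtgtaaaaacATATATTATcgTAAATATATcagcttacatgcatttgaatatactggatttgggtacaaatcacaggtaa
PIG-F, chr3L:19612273-19612373, plus strand: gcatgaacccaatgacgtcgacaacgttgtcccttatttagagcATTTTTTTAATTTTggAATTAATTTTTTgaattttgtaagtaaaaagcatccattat
EMC5, chr2L:18987584-18987684, plus strand: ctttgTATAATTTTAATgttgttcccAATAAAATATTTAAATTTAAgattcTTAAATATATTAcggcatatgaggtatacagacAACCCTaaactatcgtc
PIG-Q, chrX:16359101-16359201, plus strand: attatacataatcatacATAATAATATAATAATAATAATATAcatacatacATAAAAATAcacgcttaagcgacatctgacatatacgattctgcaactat
Sec63, chr3L:7360506-7360606, plus strand: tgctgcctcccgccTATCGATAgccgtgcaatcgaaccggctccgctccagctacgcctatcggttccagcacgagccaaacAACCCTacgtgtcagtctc
Sec61alpha, chr2L:6480668-6480768, minus strand: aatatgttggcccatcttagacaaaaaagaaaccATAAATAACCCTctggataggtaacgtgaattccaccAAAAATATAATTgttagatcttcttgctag
Sec5, chr2L:3457163-3457263, plus strand: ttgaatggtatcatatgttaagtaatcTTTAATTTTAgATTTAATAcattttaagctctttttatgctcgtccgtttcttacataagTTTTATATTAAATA
Sec20, chr3R:5824579-5824679, minus strand: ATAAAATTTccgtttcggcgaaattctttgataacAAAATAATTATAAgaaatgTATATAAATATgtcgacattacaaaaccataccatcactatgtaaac

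The arm not printed holds PIG-O and PIG-G, whose peaks were stronger than those of every PIG or EMC gene shown, and Sec6, second in signal to Sec63 among Sec genes. They were measured with the rest. The window of PIG-O held 38.6% GC, that of PIG-G 23.8% and that of Sec6 17.8%. AT-rich sequence was common but not general among the 35 windows. Around the 35 summits the median GC content was 27.7% (17.8 to 60.4%), and it was 34.7% around all 3619 IDR summits at promoters. Of the 35 windows, 26 (74.3%) lay below that median of all promoter summits. In windows 300 bp to either side the order was the other way, with a median GC content of 48.5% beside the summits of these genes and 43.6% beside all promoter summits. A run of at least 8 A or T bases was found at 34 of 35 summits (97.1%) and at 72% of all promoter summits. The longest run per window had a median of 12 bases at these genes and 10 bases at all promoter summits. In flanking windows a run was found in 40% beside these genes and in 47.7% beside all promoter summits. The lowest GC content was at Sec6 (17.8%), and the longest runs of A or T were 27 bases at PIG-S and 25 bases at PIG-Q.

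The one summit with no such run was that of Sec63, which had the strongest peak of the 50 genes. Its window held 60.4% GC, and its longest run of A or T was 3 bases. The next highest GC contents were 43.6% at PIG-L and 40.6% at both EMC4 and Sec23.

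**Figure D2:**
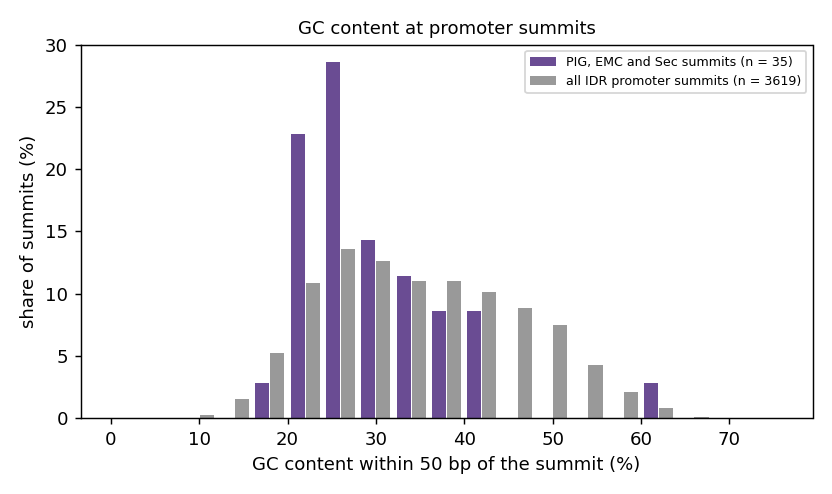
GC content within 50 bp of the summit (horizontal axis, percent) against the share of summits (vertical axis, percent, from 0), in bins of 4 percentage points, for the 35 IDR summits of PIG, EMC and Sec genes (purple) and all 3619 IDR promoter summits (grey). The tallest purple bars, at 20 to 24% and 24 to 28% GC, hold 8 and 10 of the 35 summits, and the single bar beyond 60% is Sec63.

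Words searched on both strands within 50 bp of the summit were found at few of the 35 genes. TATCGATA, the core of the DNA replication-related element, matched at PIG-V, EMC4 and Sec63 (3 of 35, 8.57%) and at 4.01% of all promoter summits. CAGCTG, an E-box, matched at PIG-L, PIG-O and Sec61beta (8.57%, against 5.64%), and GAGAG, the GAGA core, at PIG-V, PIG-G and EMC2B (8.57%, against 9.42%). GGTCACAC, part of the promoter element called Motif 1, matched at none of the 35 and at 2.79% of promoter summits. A search for 8-base words compared IDR summits outside these promoters with their flanks. The word ranked first was CAACCCTG, at 2.76% of those summits and 0.169% of flanking windows. Words of A and T only ranked below it with higher shares, such as ATTTAAAA at 6.73% and 2.5%. CAACCCTG matched at none of the 35 genes and at 2.9% of all promoter summits. No match says only that these letters are not in the window.

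**Figure D3:**
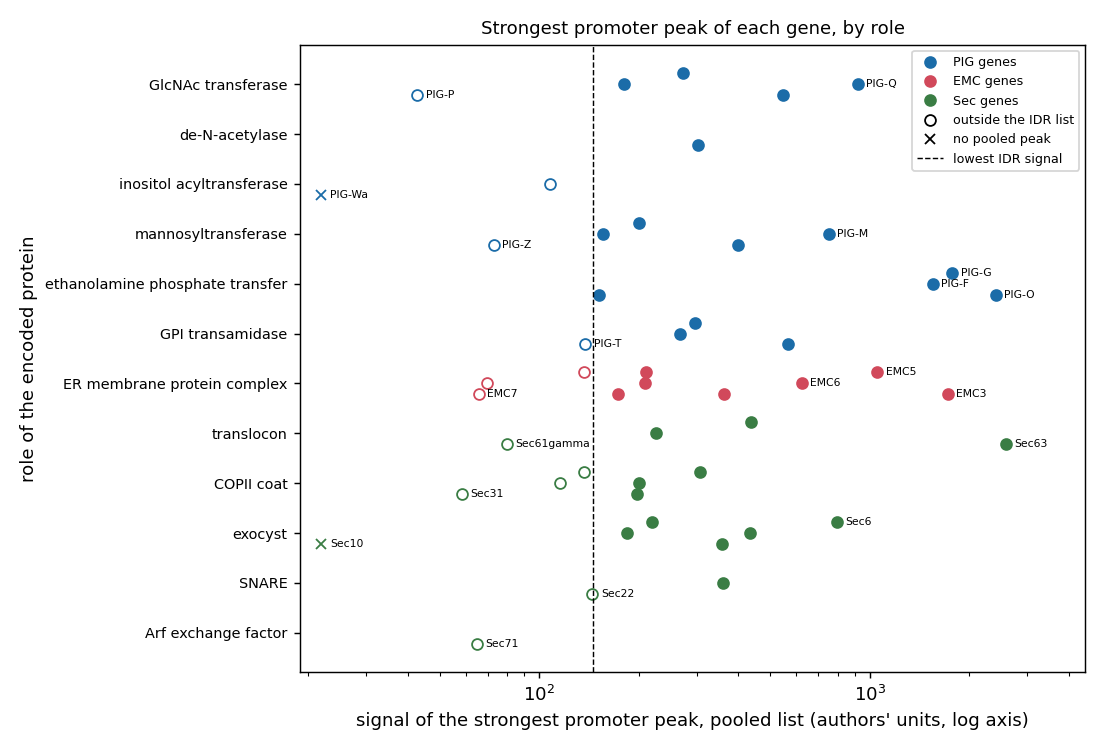
Signal of the strongest promoter peak of each gene in the pooled list (horizontal axis, authors' units, log axis) by the role of the encoded protein (vertical axis); blue, PIG; red, EMC; green, Sec. Filled points are in the IDR list, open points are pooled peaks outside it, crosses at the left edge are PIG-Wa and Sec10, which have no pooled promoter peak, and the dashed line is the lowest IDR signal, 146.

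Signals are the authors' values and an IDR peak has the same signal in the pooled list. They rank peaks within a list, and the scale differs between lists (highest value 9217 in the pooled list, 3576 in replicate 3 and 5652 in replicate 4). Over the 35 genes the IDR signal ran from 152 to 2586, with a median of 358, and over all protein-coding genes with an IDR peak the median was 296 (146 to 6809). The family medians were 352 for PIG, 363 for EMC and 332 for Sec genes. Peaks above a signal of 1000 were present at 6 of the 50 genes (12%) and at 4.22% of all protein-coding genes. Of the 35 genes, 22 (62.9%) had a peak stronger than the median of the 3619 IDR promoter peaks. That median is taken over peaks and not over genes. The same share was not counted for all protein-coding genes, so 62.9% has no exact background here. Most of those with an IDR peak also lay above that median. Their own median was 296, and PIG-C, at 272, was already stronger than 51% of the promoter peaks.

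The GPI pathway starts with transfer of N-acetylglucosamine to phosphatidylinositol, by a complex whose catalytic subunit is PIG-A. Of its 5 subunits here, 4 had an IDR peak, as did 30.7% of all protein-coding genes. PIG-Q stood highest with an IDR signal of 920 (rank 567), and signals of 294 in replicate 3 and 619 in replicate 4. PIG-A followed with an IDR signal of 546, and 157 in replicate 3 and 389 in replicate 4. PIG-C had an IDR signal of 272 and PIG-H one of 181. PIG-A ranked 1476 in replicate 3 and 1060 in replicate 4, PIG-C ranked 2725 and 2870, and PIG-H lay low in both, at 5325 and 4845. PIG-P, a small subunit of the same complex, had no IDR peak. Its pooled peak, 35 bp upstream of the TSS, had a signal of 42.8 at rank 20541, the weakest pooled promoter peak of the 50 genes.

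The next steps differed from each other. PIG-L, the de-N-acetylase, had an IDR signal of 302 (rank 2399 in replicate 3 and 2440 in replicate 4) and a second, weaker IDR summit within 500 bp. The inositol acyltransferase is represented by PIG-Wa and PIG-Wb, and neither had an IDR peak. PIG-Wa was the only one of the 50 genes with no promoter summit in any of the 4 lists, whereas 32.5% of all protein-coding genes had none. The nearest summit of any list was in replicate 4, 1148 bp from its TSS. PIG-Wb had a pooled peak of signal 108, 447 bp upstream, close to the limit of 500 bp. A second pooled summit lay 126 bp from its TSS.

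Mannosyltransferases and their partners had an IDR peak at 4 of 5 genes, beside 30.7% of all protein-coding genes. PIG-M, which adds the first mannose, had an IDR signal of 751 (258 in replicate 3 and 487 in replicate 4), and PIG-X, its stabilising partner, had 401. Values for the later enzymes were lower, at 201 for PIG-V and 156 for PIG-B. PIG-V ranked 6223 in replicate 3 and 3707 in replicate 4, and PIG-B went the other way, with 4686 and 7301. PIG-Z, whose counterpart adds a side-branch mannose, had a pooled peak of signal 73 outside the IDR list, at rank 8426 in replicate 4, and no promoter peak in replicate 3.

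The strongest peaks of the GPI pathway lay at genes of ethanolamine phosphate transfer. All 4 members had an IDR peak, as did 30.7% of all protein-coding genes. PIG-O, the enzyme that adds the ethanolamine phosphate to which the protein is joined, had an IDR signal of 2413 (rank 102). Its signals were 981 in replicate 3 (rank 87) and 1441 in replicate 4 (rank 120). PIG-G, which modifies the second mannose, had an IDR signal of 1777, and 500 in replicate 3 and 1281 in replicate 4. PIG-F, the partner that stabilises both enzymes, had an IDR signal of 1553, and 411 in replicate 3 and 1141 in replicate 4. These were the PIG genes with signals above 1000, and each ranked within the best 400 peaks of both replicates. PIG-N, which modifies the first mannose, was at the other end with 152 (rank 5413), the weakest IDR peak of the 50 genes and close to the lowest signal of the list, 146. It ranked 3620 in replicate 3 and 6948 in replicate 4.

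GPI transamidase joins the finished anchor to the protein. PIG-U, a subunit, had an IDR signal of 568, PIG-K, the catalytic subunit, one of 296, and PIG-S one of 267. Their ranks in replicates 3 and 4 were 1247 and 1013 for PIG-U, 2687 and 2259 for PIG-K, and 4464 and 2280 for PIG-S. PIG-T, a further subunit, had a pooled peak of signal 138 (rank 6070), 20 bp upstream of its TSS and just outside the IDR list.

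EMC genes covered a similar range. EMC3, whose counterpart forms part of the insertase core, was highest, with an IDR signal of 1726 (rank 204), and 708 in replicate 3 and 1004 in replicate 4. EMC5 had an IDR signal of 1054 (327 in replicate 3 and 755 in replicate 4) and EMC6, another core membrane subunit, one of 623 (221 in replicate 3 and 393 in replicate 4). EMC4 had 363. The other IDR signals of the complex were 211 at EMC2B, 209 at EMC1 and 173 at EMC8-9. EMC2B and EMC1 ranked better in replicate 4 (2964 and 3170) than in replicate 3 (6366 and 7109), and EMC8-9 ranked better in replicate 3 (3735) than in replicate 4 (5535). Outside the IDR list were EMC2A (pooled signal 137), EMC10 (69.7) and EMC7 (65.7). The neighbouring copies EMC2A and EMC2B, both on the minus strand of 3R, thus lay on opposite sides of the lowest IDR signal, with pooled ranks of 6138 and 3551. EMC10 had no promoter peak in replicate 3, where the nearest summit was 4988 bp away.

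Among Sec genes the translocon, the channel for entry into the ER, held the strongest peak. Sec63, a J-domain protein that recruits the chaperone BiP to the channel, had an IDR signal of 2586 (rank 92). Its signals were 947 in replicate 3 (rank 94) and 1654 in replicate 4 (rank 82). The summit lay 5 bp upstream of the TSS and a second IDR summit was within 500 bp. Of the channel subunits, Sec61alpha, the pore, had an IDR signal of 439 and Sec61beta one of 225, while Sec61gamma had a pooled peak of 79.7 outside the IDR list. Sec61alpha ranked 2937 in replicate 3 and 1214 in replicate 4, and Sec61beta ranked 2972 and 3808.

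COPII coat proteins form vesicles that leave the ER. IDR peaks were present at 3 of 6 of their genes, and at 30.7% of all protein-coding genes. The signals were 306 at Sec23 of the inner coat, 201 at Sec13 of the outer coat and 198 at Sec16, the scaffold of ER exit sites. The median over all protein-coding genes with an IDR peak was 296. All 6 genes had a pooled promoter peak, as did 60.9% of all protein-coding genes. Outside the list were Sec24CD (pooled signal 137), Sec24AB (116) and Sec31 (58.5). Sec24AB had an IDR summit 895 bp from its nearest TSS, beyond the limit of 500 bp. Among the roles, the COPII count differed most between replicates. With 5654 peaks per replicate, replicate 3 held 1 of the 6 genes (against 29.4% of all protein-coding genes) and replicate 4 held 4 (against 30.5%). With 1 library per replicate, this difference was not tested.

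Exocyst subunits, which tether vesicles to the plasma membrane, had an IDR peak at 5 of 6 genes, beside 30.7% of all protein-coding genes. IDR signals were 794 at Sec6 (239 in replicate 3 and 559 in replicate 4), 434 at Sec5, 358 at Sec3, 220 at Sec15 and 185 at Sec8. By the strongest summit of each replicate, all 5 ranked better in replicate 4, as did 54.8% of all protein-coding genes with an IDR peak and a promoter peak in both. Ranks ran from 656 at Sec6 to 3814 at Sec15 in replicate 4, and from 844 at Sec6 to 5343 at Sec8 in replicate 3. At Sec15 the strongest summits differed, 145 bp upstream in replicate 3 and 364 bp in replicate 4. Its summit 133 bp upstream in replicate 4 ranked 4800, behind rank 4371 of the one at 145 bp in replicate 3. Sec10, the exocyst gene without an IDR peak, had a single promoter peak in replicate 4 (signal 87.7, rank 6214, 7 bp upstream of the TSS). It had none in the pooled or replicate 3 lists. Of the SNAREs of ER and Golgi traffic, Sec20 had an IDR signal of 359, and Sec22 had a pooled signal of 145 (rank 5731), the value nearest to the IDR list from outside. Sec71, an Arf exchange factor, had a pooled signal of 64.8.

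**Figure D4:**
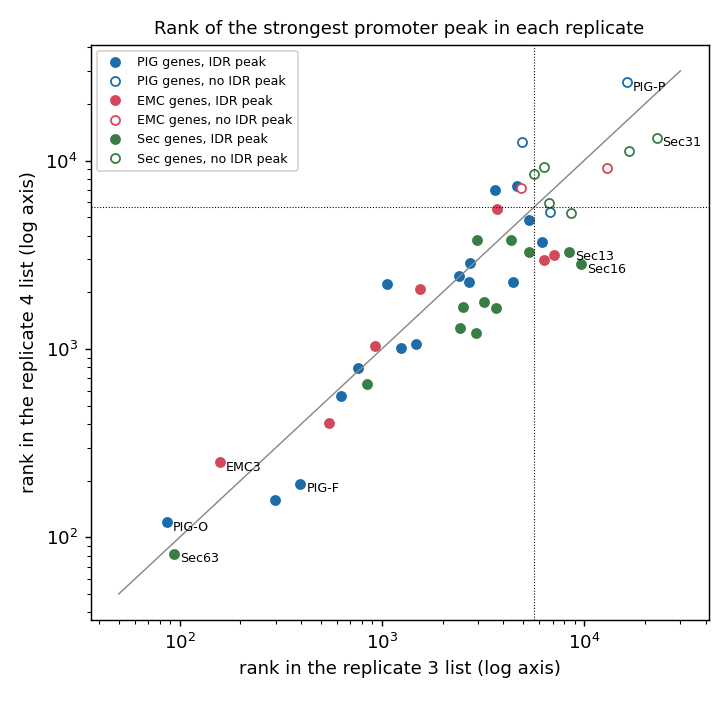
Rank of the strongest promoter peak in the replicate 3 list (horizontal axis) and in the replicate 4 list (vertical axis), both log axes, for the 46 genes with a promoter peak in both; filled, with an IDR peak; open, without. The diagonal is equal rank, and dotted lines mark rank 5654. Most filled green points, the Sec genes, lie below the diagonal, with Sec13 and Sec16 furthest among the labelled ones.

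Replicates ranked the families differently. Of the 12 Sec genes with an IDR peak, 11 (91.7%) had the better rank in replicate 4. The count was 9 of 16 for PIG genes and 3 of 7 for EMC genes, and the share was 54.8% for all protein-coding genes with an IDR peak and a promoter peak in both replicates. Each rank is that of the strongest summit in its replicate, and the 2 summits of a gene need not coincide. Sec13 ranked 8458 in replicate 3 and 3292 in replicate 4, and Sec16 ranked 9682 and 2815. At Sec16 the first rank is of a summit 126 bp downstream of a TSS and the second of one 140 bp upstream. The ranks at Sec15 and Sec23 likewise belong to separate summits, with gaps given below. PIG-X went the other way, with rank 1061 in replicate 3 and 2218 in replicate 4. With 1 library per replicate, this difference was not tested. At the 35 genes with an IDR peak, the strongest summits of the replicates were 1 to 266 bp apart, with a median of 35 bp. PIG-O and PIG-G had summits 1 bp apart, PIG-F, PIG-X and Sec13 2 bp, and EMC3 3 bp. The widest gaps were at Sec16 (266 bp), Sec15 (219 bp) and Sec23 (184 bp), each of which had 2 IDR summits within 500 bp. PIG-L and Sec63 also had 2 IDR summits, with gaps of 44 and 20 bp.

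Summits lay upstream of the start site at nearly all genes. Of the 35, 32 (91.4%) were upstream, as were 84% over all protein-coding genes with an IDR peak. The distance to the gene's own TSS ran from 5 to 364 bp with a median of 105 bp, and over all such genes the median was 121 bp. The 3 summits downstream were at PIG-H (13 bp), PIG-Q (8 bp) and Sec8 (14 bp). The farthest upstream was at Sec15, 364 bp, followed by Sec16 at 312 bp and Sec23 at 244 bp. In the other lists the summits nearest to the 500 bp limit from inside were those of Sec61gamma (491 bp, replicate 3), Sec20 (465 bp, replicate 4, not its strongest) and PIG-Wb (452 bp, replicate 3). Outside it, the nearest IDR summits were 895 bp from Sec24AB and 1101 bp from PIG-P.

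**Figure D5:**
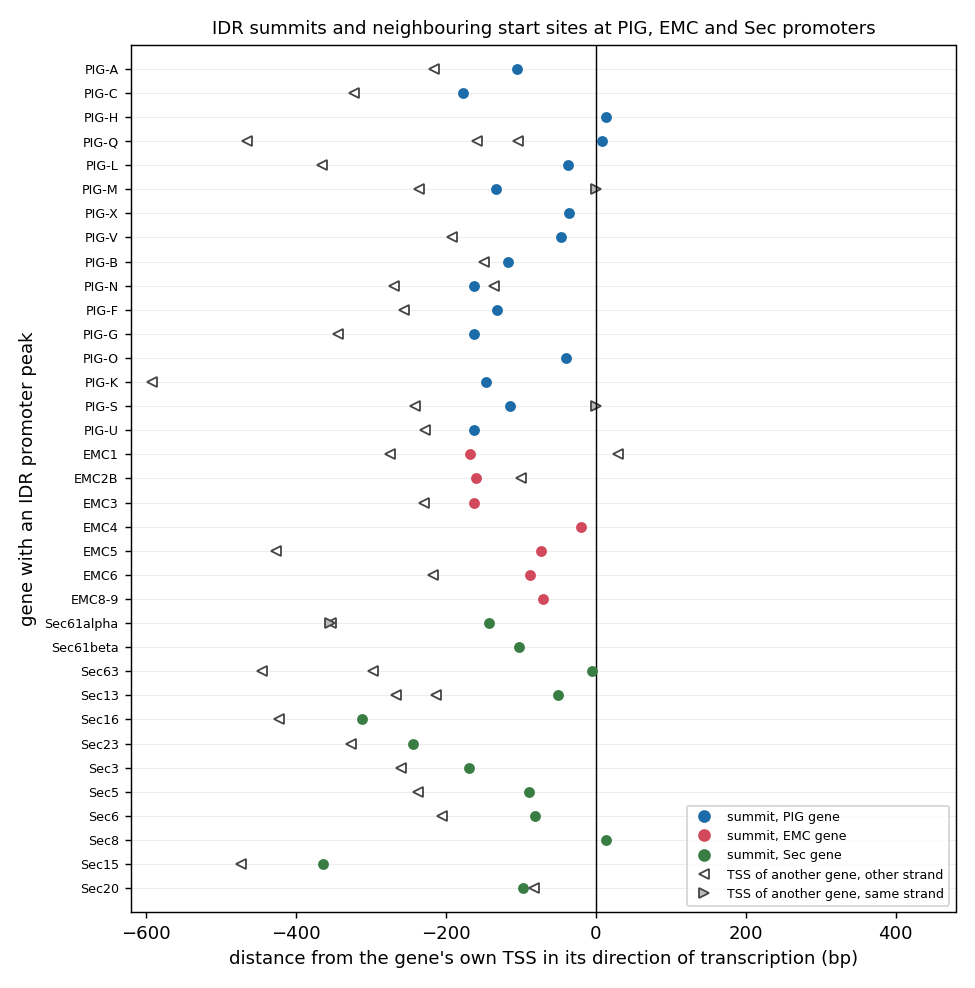
IDR summits (coloured points) and TSSs of other genes (triangles, as far as the axis reaches) at the 35 PIG, EMC and Sec promoters with an IDR peak, by distance from the gene's own TSS in its direction of transcription (horizontal axis, bp). Open triangles are TSSs on the other strand and grey ones on the same strand. Of the 35 points 32 lie left of 0, and many lie between the gene's own TSS and an open triangle.

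Many of these promoters are shared with a gene that runs in the other direction. Of the 50 genes, 38 (76%) had a TSS of another gene within 1000 bp of their own, as did 48.2% of all protein-coding genes. Genes with such a neighbour had IDR peaks more often in general, so the counts were also read within each class. With a neighbour, 29 of 38 genes had an IDR peak (76.3%, against 45.8% of all such genes), and without one, 6 of 12 (50%, against 16.6%). A divergent protein-coding TSS within 1000 bp was present at 32 of the 50 genes (64%, against 36.2% of all protein-coding genes). Of these 32, 27 had an IDR peak (84.4%, against 53.4% of all genes with such a TSS). The 6 genes with a peak and no neighbour were PIG-H, PIG-X, PIG-O, EMC4, EMC8-9 and Sec8, and the 6 with neither were PIG-T, PIG-Wa, Sec10, Sec22, Sec31 and Sec71. By family, 3 of 5 PIG, 2 of 2 EMC and 1 of 5 Sec genes without a neighbour had an IDR peak. With a neighbour the counts were 13 of 16 PIG, 5 of 8 EMC and 11 of 14 Sec genes, so the few EMC genes went the other way. Over the 50 genes together and in the background, gene spacing moved with peaks. Its part in the counts was not tested.

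At a shared promoter the data do not say which gene a summit belongs to. At 28 of the 35 genes (80%, against 59.6% of all genes with an IDR peak) the summit was within 500 bp of another gene's TSS. At 14 of them that other TSS was nearer than the gene's own. The gene's own TSS was the nearest at the other 21 of 35 (60%), against 71.5% of all protein-coding genes with an IDR peak. The 14 were PIG-B, PIG-C, PIG-F, PIG-M, PIG-N, PIG-U, EMC1, EMC2B, EMC3, Sec3, Sec15, Sec16, Sec20 and Sec23. PIG-N was 163 bp from a summit 27 bp from mRpL42, a mitochondrial ribosomal protein gene. Sec20 was 97 bp from a summit 14 bp from dgrn, a ubiquitin ligase gene. EMC3 was 162 bp from a summit 68 bp from Dpy-30L1. PIG-F and Lon, a mitochondrial protease gene, lay at nearly the same distance, 132 and 124 bp.

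Partners at these summits had varied functions. Within the same pathways, PIG-C shared its summit with CG12016 and Dpm2, both 145 bp away, and the counterpart of Dpm2 belongs to the synthase of dolichol phosphate mannose, the mannose donor of GPI anchors. Sec5 shared one with Cog3, a Golgi tethering subunit, and PIG-A with Vps50, an endosomal tethering subunit. Genes of transcription, chromatin and splicing were U2af50 with PIG-Q, NC2alpha with PIG-M, Taf7 with EMC1, MTA1-like with Sec23 and Daxx with Sec61alpha. Genes of mitochondrial energy metabolism were ATPsynCF6 with Sec13 and COX7B with Sec3. Sec6 shared its summit with Atg7, an autophagy enzyme, EMC6 with the nuclear receptor gene Hr96 and PIG-S with sud1, which starts at the same position on the same strand. PIG-M shares its start site with CG42379, CG42380 and CG42381. The remaining partners were psidin with PIG-L, mute with PIG-V, CG32263 with PIG-B, CG1602 with PIG-G, CG13097 with PIG-U, CG11168 with PIG-S, Swip-1 with EMC5, pst with Sec63, CG1824 with Sec16 and rtet with Sec15. At PIG-K and EMC2B the partner was a long noncoding RNA gene, and Sec61alpha had one besides Daxx, lncRNA:CR45463, 212 bp from the summit.

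Other genes of the same pathways, from a list written by symbol with earlier results known, gave these counts. Of 31 symbols, 29 matched different genes, and 18 of these (62.1%, against 30.7% of all protein-coding genes) had an IDR promoter peak. The signal recognition particle, which brings nascent chains to the translocon, had peaks at Srp54 (1517), Srp14 (566), Srp68 (423), Srp19 (230), Srp72 (216) and Srp9 (148), all 6 of its listed proteins. Its receptor had one at SrpRbeta (298) and none at SrpRalpha. Beside the translocon, TRAM had an IDR signal of 1102, and the oligosaccharyltransferase genes Stt3A, Stt3B and Ostgamma had 1394, 385 and 341, while OstDelta and Ost48 had none. Of the translocon-associated genes Tapdelta had 149 and SsRbeta had neither an IDR nor a pooled promoter peak. Tango1, which acts at ER exit sites, had 311. Of the signal peptidase genes, 1 of 4 had one (against 30.7%), Spase22-23 (218), with a summit exactly 500 bp from its TSS. Sar1, the GTPase that starts COPII assembly, and the exocyst subunit Exo84 had none, and Exo70 had 177. In the GPI pathway, GAA1, a transamidase subunit, had 293, and PGAP2 and PGAP3, which remodel the anchor lipid, had 374 and 311, while PGAP5 and Dpm1 had none.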

How the data were processed

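Peak lists in narrowPeak format, with dm6 coordinates, were used as the authors deposited them. Per the deposited text records, each replicate's reads and then both replicates' reads together were compared with a control to call peaks, and the optimal IDR list came from those 3 lists. The control was not analysed here. No source used here gives the aligner, peak caller, versions or IDR threshold. Chromatin was sonicated to 200 to 800 bp, per the labels. The authors' deposited signal values are in units of their own and ranked peaks within 1 list only. Their deposited −log10 q values were not used for ranking, since 7049 of 30000 pooled peaks and every IDR peak share the highest value, 4.15. All 5654 IDR peaks were among the 5654 strongest pooled peaks.

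TSSs came from the Ensembl release 115 annotation of BDGP6.54, whose gene ends and the peaks lie within the arm lengths of the RefSeq Release 6 sequence. Transposable elements were left out, which gave 18164 genes. Summit position was peak start plus summit offset, converted to a 1-based position, and the assignment of summits to genes was checked on simulated peaks. Where several summits lay within 500 bp the strongest was taken. Members, lists and searched words were chosen with earlier results of these data known. Every member is named, with values for members with an IDR peak and the best list for the others. No test was run across genes, and alternatives varied the window, list, replicate and assignment. Analyses used Python 3.11.15, NumPy 2.4.6, SciPy 1.17.1 and matplotlib 3.10.9.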

Additional observations from a re-analysis of the deposited data

How the results depend on the processing

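The count of genes with an IDR promoter peak stayed within 1.5 times its value for each family with summits within 250 bp (35 of 50 genes in all, 70%, against 26.4% of all protein-coding genes) or 1000 bp (36, 72%, against 34.2%), with all pooled peaks (48, 96%, against 60.9%), and when the peak itself had to cover a TSS (30, 60%, against 21%). With the best peaks of a single replicate the count was 32 to 35 in all, 15 to 16 for PIG, 6 to 7 for EMC and 10 to 13 for Sec genes, against 29.4 to 30.5% of all protein-coding genes. It moved further in 3 settings, for some counts or for all. The 2827 strongest IDR peaks left 23 genes in all (46%, against 17.8% of all protein-coding genes), with 4 EMC and 7 Sec genes. The PIG count, 12, stayed within 1.5 times. Giving a summit only to the nearest TSS left 10 PIG and 4 EMC genes. The total in that setting, 24 (48%, against 22.7%), and the Sec count, 10, stayed within 1.5 times. Leaving out genes with another gene's TSS within 1000 bp left 6 of 12 (50%, against 16.6%), with 3 PIG, 2 EMC and 1 Sec genes. All 3 settings remove summits or genes by construction. The median IDR signal, 358, was 359 within 1000 bp, 382 for peaks that cover a TSS, 333 for the nearest TSS and 274 without genes that have a neighbour. No paired analysis was possible because both replicates belong to 1 group. Depth is unknown, and families of 10 to 21 genes limit what their shares can show.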

Other observations

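A shorter word was looked at after the sequences had been seen. AACCCT, the inner part of CAACCCTG, lay within 50 bp of the summits of EMC5, Sec61alpha and Sec63 (3 of 35, 8.57%) and of 6.11% of all promoter summits, and in 1.43% and 1.92% of their flanking windows. Every match of CAACCCTG is also a match of this word. By arm, IDR peaks were found at 11 of 14 of the 50 genes on 3R, 6 of 8 on 3L, 10 of 14 on 2R, 5 of 8 on 2L and 3 of 6 on X, and the shares over all protein-coding genes were 30.9, 32.2, 30.1, 28.7 and 31.6%. The 3 genes on X without an IDR peak were PIG-T, Sec22 and Sec61gamma.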
